A study of Drosophila melanogaster with 36 samples.

Results

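Gene expression was compared between young flies that made mutant human SOD1 in motoneurons and glia at once and flies that made it in only one of these cell types. The G85R mutation of SOD1 is linked to amyotrophic lateral sclerosis, a disease in which motoneurons degenerate and glia, the support cells of the nervous system, contribute to its course. The question was whether the expression difference of the combined driver was like that of the motoneuron driver, like that of the glial driver, or like the sum of both. The comparison used the 18 arrays of 5-day-old (5d) flies among the 36 arrays of the series.

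Flies were adult males, and every array held RNA from a pool of 40 whole animals. The tested transgene was UAS-G85R, a mutant human gene, and its control was UAS-dSOD1, the wild-type Drosophila gene, so both arms overexpressed a SOD1 protein. Each transgene was switched on by D42-Gal4 plus M1B-Gal4 (MN+glia), by D42-Gal4 alone (motoneurons, MN) or by M1B-Gal4 alone (glia), with 3 arrays in each of the 6 groups at 5d. All 3 G85R groups carried the same UAS line and all 3 dSOD1 groups the other, so the transgene and the genetic background of its line cannot be told apart. In extracts of whole flies, fewer cells of a type and less RNA per cell cannot be told apart either.

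In the Gal4-UAS system a yeast transcription factor is expressed under a cell-type promoter and activates any transgene placed behind its binding sites. Motoneurons carry the commands of the nervous system to muscle. Glia insulate neurons, clear transmitter and debris, and form the barrier between the nervous system and the blood fluid. Both cell types are a small fraction of a whole fly, so most of the RNA on these arrays came from muscle, gut, fat body and reproductive organs.

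One array stood apart and was left out of the values given first. On replicate 2 of MN+glia G85R, the 3′ probe set exceeded the 5′ probe set of the actin control by 5.72 on the log2 scale, against 2.53 to 3.24 on the other 17 arrays of 5d flies. For the GAPDH control the gap was 4.29 against 1.64 to 1.88, and for eIF-4a it was 6.34 against 2.58 to 3.28, which marks RNA with shortened 5′ ends. Replicates within a group correlated at 0.997 or more across probe sets, apart from pairs with this array, which went down to 0.992. The MN+glia G85R group therefore had 2 arrays, and results with all 36 arrays stand beside the first count of each comparison.

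Markers matched the male sex given in the study's methods and showed a difference between driver lines. Over the 6 groups without the degraded array, the 29 male accessory gland genes averaged 10.8 to 11.1 per array. The 15 female germline and yolk genes averaged 4.74 to 5.01. The neuronal gene elav was at 8.50 and 8.54 in MN+glia G85R flies and at 8.58, 8.71 and 8.14 in MN+glia dSOD1 flies. In glia G85R flies elav was at 6.44, 6.41 and 6.33, and in glia dSOD1 flies at 6.43, 6.46 and 6.58. In MN flies it lay between 8.35 and 8.94. Both groups with the glial driver alone were thus low in elav, and none of its differences between G85R and dSOD1 passed the test. The gap was smaller for nSyb and for the list of 26 neuron and motoneuron genes. That list averaged 7.27 to 7.31 per array in glia flies, 7.30 to 7.60 in MN flies and 7.56 to 7.62 in MN+glia flies. The neuronal gene nSyb was between 7.08 and 7.45 in glia flies and between 7.33 and 8.03 in MN and MN+glia flies. The 2 probe sets of VGlut were low in all groups, at 4.22 to 4.66 and 3.24 to 3.66, where such a gap could not be read. The glial gene repo was between 7.81 and 8.49 on all 18 arrays. The part of such line differences in the results was not tested.

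Across probe sets, the MN+glia difference tended to be closer to the glia difference than to the MN difference. The lipase gene CG11598 and the esterase gene alpha-Est2, which had some of the largest gaps to MN, rose by 3.41 and 2.64 in MN+glia. They rose by 0.82 and 1.13 in MN and by 3.34 and 2.88 in glia. Some genes went the other way, such as DIP-delta with -0.74 in MN+glia, -0.77 in MN and -1.90 in glia. Over all 18769 fly probe sets, the MN+glia difference between G85R and dSOD1 correlated at 0.691 with the glia difference and at 0.392 with the MN difference. These differences share no arrays, and the correlations are a description across genes, which are not independent replicates. A least-squares fit of the MN+glia difference gave a coefficient of 0.67 for glia and 0.09 for MN. Among the 90 probe sets that passed the test and changed at least 2-fold in MN or in glia, the coefficients were 0.77 for glia and 0.14 for MN. The median distance of the MN+glia difference over these 90 was 0.22 from the glia difference, 0.40 from the MN difference and 1.30 from their sum, all on the log2 scale. These probe sets were chosen by the single drivers, whose values are therefore more extreme than a repeat would give.

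**Figure D1:**
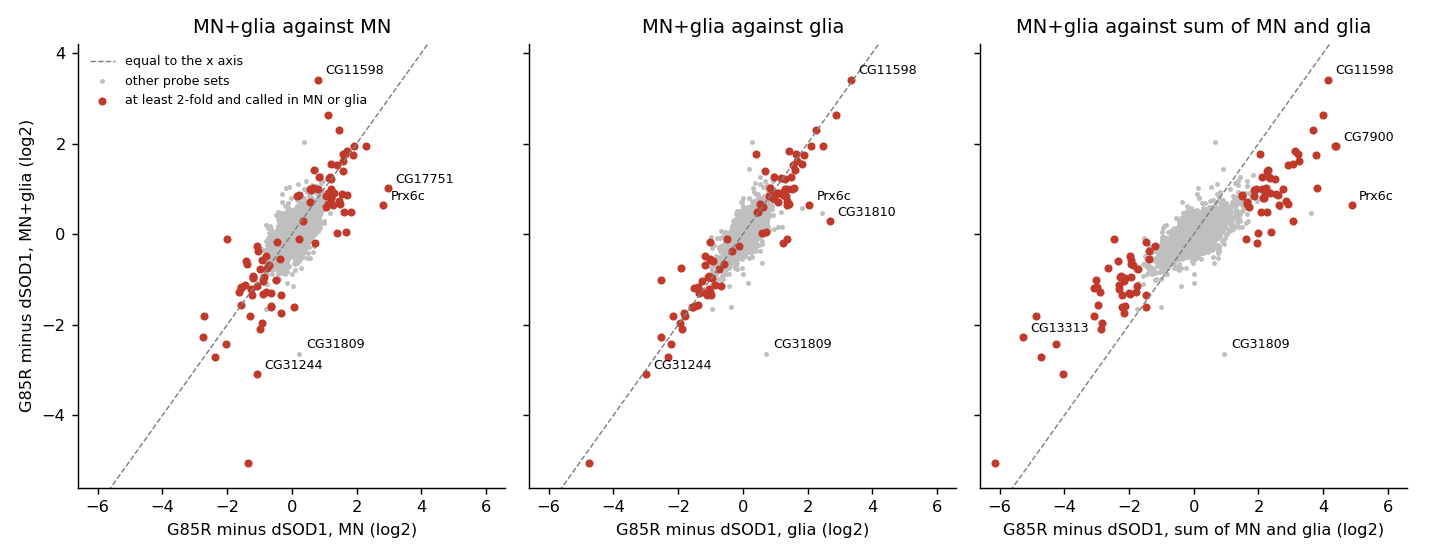
Difference between G85R and dSOD1 in MN+glia flies (y axis, log2) against that in MN flies, in glia flies and against the sum of both (x axes, log2) for 18769 probe sets at 5d, without the degraded array. Red points passed the test and changed at least 2-fold in MN or glia; they lie nearest the dashed line of equality in the glia panel and flatter than it in the sum panel, and CG31809 lies apart in all panels.

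Against the motoneuron driver, the combined driver gave a larger rise of CG11598 and alpha-Est2 and a fall of CG31809, CG31244 and ImpE3 that MN flies showed less or not at all. It gave a smaller rise of the peroxiredoxin gene Prx6c, the predicted transporter gene CG17751 and the UDP-glucuronosyltransferase gene Ugt49B1. In limma with Benjamini-Hochberg adjustment, 192 of 18769 probe sets (1.02%) differed between the MN+glia and MN differences at an adjusted p of 0.05 or less. Of these, 81 (0.432% of all) were higher in MN+glia and 111 (0.591%) were lower. At least 2-fold gaps were seen for 6 of the higher (0.032%) and 17 of the lower (0.0906%). With every array centred on its median, 111 were higher and 66 lower, so the split moved to 62.7% higher from 42.2% as deposited. With all 36 arrays, 226 were higher and 261 lower (2.59% together), and 150 of the 192 calls were made in both. Leaving out MN+glia G85R replicate 3 left 30 higher and 45 lower, while leaving out MN dSOD1 replicate 2 gave 224 and 284.

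CG11598 encodes a lipase. It was at 9.28 and 9.20 in MN+glia G85R flies (9.06 on the degraded array) and at 6.04, 5.71 and 5.73 in MN+glia dSOD1 flies. In MN flies it was at 10.23, 10.32 and 10.23 with G85R and at 9.50, 9.37 and 9.46 with dSOD1. Glia flies had 9.35, 9.18 and 9.26 with G85R and 6.16, 5.89 and 5.74 with dSOD1. Thus the dSOD1 flies of both lines with the glial driver were low, MN dSOD1 flies were high, and no dSOD1 array reached the G85R arrays of its own line. The rise with G85R was 3.41 in MN+glia, 0.82 in MN and 3.34 in glia, and MN+glia exceeded MN by 2.59 ± 0.14 (SE; limma adjusted p = 3.5e-14) and glia by 0.07 ± 0.14 (adjusted p = 0.98). The 95% interval of such a difference had a median half-width of 0.252 over all probe sets.

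The carboxylesterase gene alpha-Est2 had the same order of levels. It was at 7.16 and 7.13 in MN+glia G85R flies and at 4.39, 4.50 and 4.61 in MN+glia dSOD1 flies, against 8.47, 8.69 and 8.43 in MN G85R flies and 7.44, 7.42 and 7.34 in MN dSOD1 flies. Glia flies had 7.17, 7.06 and 7.00 with G85R and 4.26, 4.18 and 4.15 with dSOD1. MN+glia exceeded MN by 1.51 ± 0.12 (limma adjusted p = 3.6e-10), and its gap to glia was -0.24 ± 0.12 (adjusted p = 0.78). Of the 8 alpha esterases measured, alpha-Est2 alone differed from MN and none differed from glia. Gene lists were read with 1 probe set per gene, and over all 11982 genes 1.27% differed from MN and 0.184% from glia.

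CG31244 and ImpE3 fell in MN+glia and in glia flies. CG31244 was at 5.13 and 5.18 in MN+glia G85R flies, against 8.33, 8.30 and 8.13 in MN+glia dSOD1 flies, and at 8.11, 7.76 and 8.14 in MN G85R flies, against 9.08, 9.14 and 8.99 in MN dSOD1 flies. In glia flies it was at 5.35, 5.25 and 5.48 with G85R and at 8.29, 8.33 and 8.41 with dSOD1. CG31244 also fell in MN, by 1.07, and the MN+glia difference minus the MN difference was -2.03 ± 0.17 (limma adjusted p = 4.6e-09). ImpE3, an ecdysone-inducible gene, was at 4.69 and 4.99 in MN+glia G85R flies and at 6.51, 6.18 and 6.70 in MN+glia dSOD1 flies. In MN flies it stayed between 4.74 and 5.15 in both arms, so the MN dSOD1 flies were already at the level of the G85R flies of the other lines. The gap of ImpE3 to MN was -1.70 ± 0.20 (adjusted p = 3e-06).

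Prx6c encodes a peroxiredoxin, an enzyme that removes peroxides, and has close copies in the genome that could share its probes. It was at 11.90 and 11.98 in MN+glia G85R flies and already at 11.26, 11.35 and 11.32 in MN+glia dSOD1 flies. MN flies had 11.61, 11.54 and 11.31 with G85R and 8.68, 8.72 and 8.58 with dSOD1, and glia flies had 11.35, 11.35 and 11.32 with G85R and 9.31, 9.25 and 9.29 with dSOD1. The G85R arrays of the 3 lines lay between 11.31 and 11.98, whereas MN+glia dSOD1 flies were far above the dSOD1 flies of both single-driver lines. The rise with G85R was 0.63 in MN+glia, 2.83 in MN and 2.06 in glia. The MN+glia difference minus the MN difference was -2.20 ± 0.16 (limma adjusted p = 7.7e-11), and minus the glia difference -1.42 ± 0.16 (adjusted p = 2.7e-06). It was the one gene of 19 measured antioxidant enzymes (5.26%) that differed from MN, and likewise from glia, beside 1.27% and 0.184% of all genes.

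CG17751 and Ugt49B1 were low in the control flies of the MN line. CG17751 was at 9.22 and 9.53 in MN+glia G85R flies, against 8.34, 8.19 and 8.53 in MN+glia dSOD1 flies, and at 8.69, 8.70 and 8.61 in MN G85R flies, against 5.64, 5.87 and 5.59 in MN dSOD1 flies. MN dSOD1 flies were thus the low group. The gap between the MN+glia and MN differences was -1.95 ± 0.13 (limma adjusted p = 3.6e-11), and that to glia was 0.17 ± 0.13 (adjusted p = 0.94). For Ugt49B1, whose family makes lipophilic compounds soluble, the gap to MN was -1.12 ± 0.11 (adjusted p = 6.5e-08). CG33109, the non-coding gene CR44101 and fit, which encodes a protein secreted by the fat body, had gaps to MN of -1.36, -1.35 and -1.63 (adjusted p = 1e-07, 0.0098 and 0.0042), and none of these 3 passed the test in MN+glia flies.

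Other genes also differed from MN. CG13324 had a difference of -0.11 in MN+glia flies, which did not pass the test, and fell by 1.99 in MN flies, a gap of 1.89 ± 0.35 (limma adjusted p = 0.0041). Without MN+glia G85R replicate 3 that gap was 1.49 with an adjusted p of 0.072. Jabba, which coats lipid droplets, was 0.91 ± 0.15 higher in the comparison with MN (adjusted p = 0.0015), while its second probe set had a gap of 0.46 that did not pass (adjusted p = 0.13). Jhbp6 of the juvenile hormone-binding protein family was 0.89 ± 0.15 higher (adjusted p = 0.001), and its second probe set had a gap of 0.47 that did not pass (adjusted p = 0.069). The lipase gene Lip4 was 0.76 ± 0.10 higher (adjusted p = 4.8e-05). The lysozyme gene LysP was 0.82 ± 0.12 higher (adjusted p = 0.0003). It rose by 0.69 in MN+glia and was at 8.13 and 8.07 there, against 7.41, 7.38 and 7.43 in MN+glia dSOD1 flies. CG10051 and CG14695 were 0.92 and 0.84 higher than in MN. CG10051 lost its call without MN+glia G85R replicate 1 (0.62, adjusted p = 0.12), and CG14695 lost its call in 9 of 28 alternative settings.

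**Figure D2:**
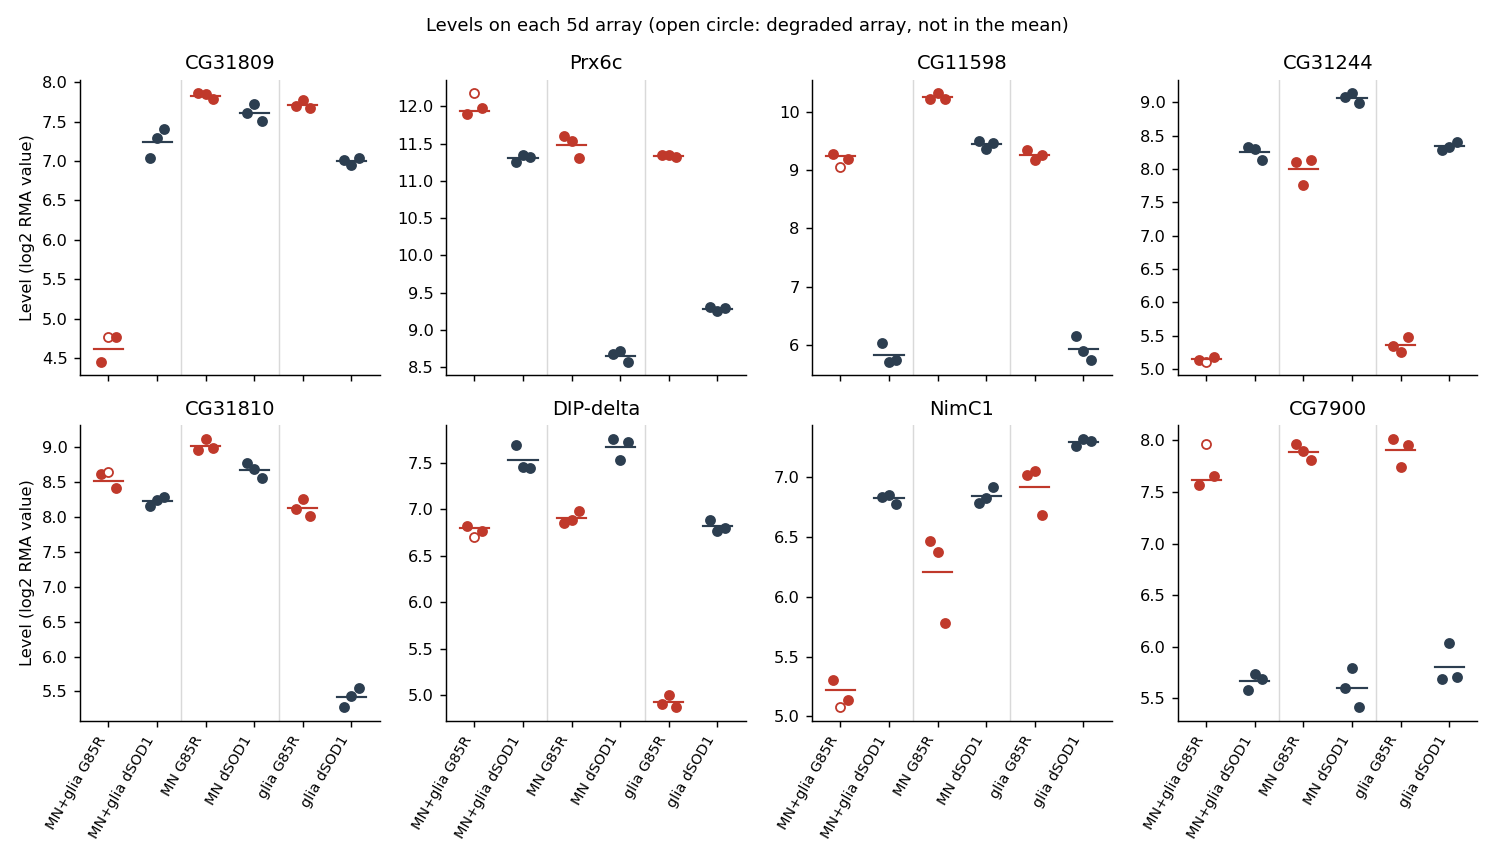
Log2 RMA level (y axis) of 8 genes on each of the 18 arrays of 5d flies, by group (x axis), with G85R in red and dSOD1 in dark blue. Bars are group means, and the open circle is the degraded array, which is not in the mean; CG31809 was low only in MN+glia G85R flies, while Prx6c, CG11598 and CG31810 differed between lines mainly in the dSOD1 flies.

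The size of the shift between lines was then compared in the 2 arms, which could both shift the same way. For CG31244 the shift from MN to MN+glia was -2.84 in G85R flies and -0.82 in dSOD1 flies. For the 192 probe sets that differed between MN+glia and MN, the G85R flies differed more between the 2 lines than the dSOD1 flies in 90, and the dSOD1 flies differed more in 102. Among the 23 with at least a 2-fold gap the numbers were 11 and 12. For the 27 probe sets that differed between MN+glia and glia, the G85R flies differed more in 20 and the dSOD1 flies in 7.

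**Figure D3:**
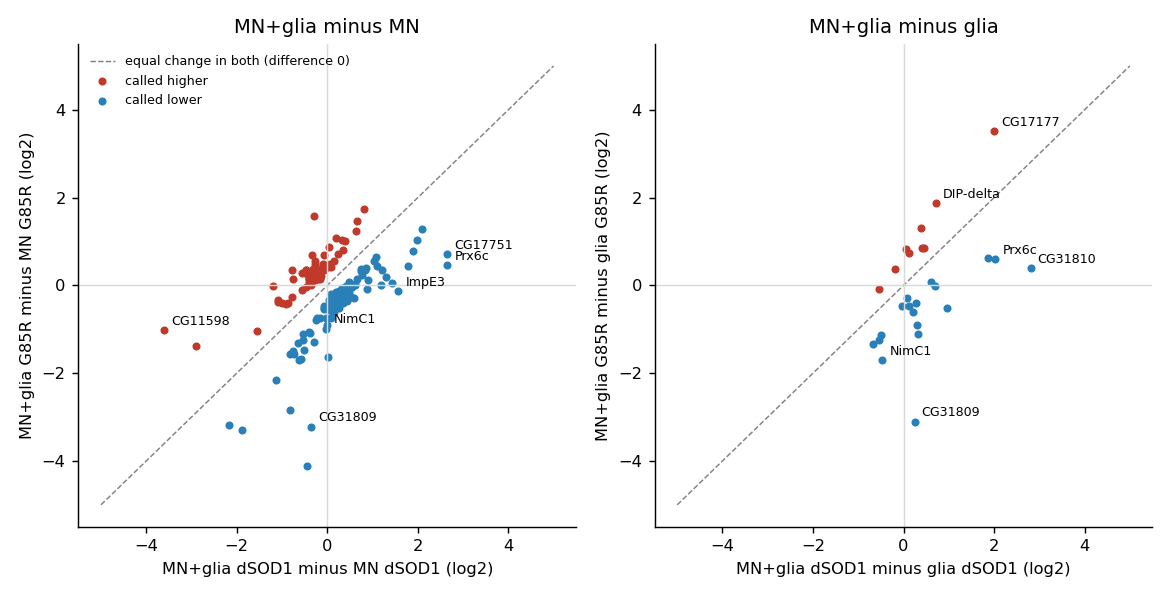
Shift between MN+glia and the single-driver line in G85R flies (y axis, log2) against the same shift in dSOD1 flies (x axis, log2), for the 192 probe sets called against MN (left) and the 27 called against glia (right). Points far along the x axis, such as Prx6c and CG17751, had unlike dSOD1 flies, and CG31809 lies far down the y axis near 0 on the x axis.

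Against the glial driver, few genes differed. CG31809 fell in MN+glia flies alone, its neighbour CG31810 rose far more in glia flies, Prx6c rose less, and CG17177 and DIP-delta fell less than in glia flies. In limma, 27 of 18769 probe sets (0.144%) differed between the MN+glia and glia differences, 9 higher in MN+glia (0.048%) and 18 lower (0.0959%). At least 2-fold gaps were seen for 2 of the higher (0.0107%) and 8 of the lower (0.0426%). With all 36 arrays, 18 were higher and 23 lower (0.218% together), and 20 of the 27 calls were made in both. At an unadjusted p below 0.05, 1172 probe sets passed, and 3351 did so against MN. The comparison with glia shares the MN+glia arrays with the comparison with MN. Leaving out MN+glia G85R replicate 3 left 2 higher, leaving out MN+glia G85R replicate 1 gave 38 higher, and the lower calls went down to 8 without glia dSOD1 replicate 3.

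CG31809 encodes a predicted short-chain dehydrogenase and had the largest gap of all named genes both to MN and to glia. It was at 4.46 and 4.77 in MN+glia G85R flies (4.76 on the degraded array) and at 7.04, 7.29 and 7.41 in MN+glia dSOD1 flies. In MN flies it was at 7.86, 7.85 and 7.79 with G85R and at 7.61, 7.73 and 7.50 with dSOD1, and in glia flies at 7.71, 7.78 and 7.67 with G85R and at 7.02, 6.95 and 7.04 with dSOD1. The MN+glia G85R arrays were therefore below all arrays of the other 5 groups. The difference was -2.64 in MN+glia (limma adjusted p = 9.8e-18), 0.22 in MN (adjusted p = 0.13) and 0.71 in glia (adjusted p = 1.9e-06). The gap to MN was -2.85 ± 0.14 (adjusted p = 7.1e-15) and that to glia -3.35 ± 0.14 (adjusted p = 1.7e-16), and none of the 28 alternative settings ended either call.

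CG31810 lies next to CG31809 in the Release 6 RefSeq annotation, encodes a protein of the same family, and its probes could share signal with it. It was at 8.61 and 8.42 in MN+glia G85R flies and 8.15, 8.24 and 8.29 in MN+glia dSOD1 flies, and at 8.96, 9.12 and 8.99 in MN G85R flies and 8.77, 8.68 and 8.56 in MN dSOD1 flies. Glia flies had 8.11, 8.26 and 8.02 with G85R but 5.27, 5.43 and 5.55 with dSOD1, so the low group was glia dSOD1. It rose by 2.71 in glia and by 0.35 in MN (the rise in MN was lost in 5 of 28 settings), and its difference of 0.29 in MN+glia did not pass (limma adjusted p = 0.17). The gap between MN+glia and glia was -2.42 ± 0.16 (adjusted p = 1.9e-11), and that to MN was -0.06 ± 0.16 (adjusted p = 0.86). Of the 6 measured members of this dehydrogenase group, these were the 2 lower against glia (33.3%, beside 0.184% of all genes called). CG31809 alone was lower against MN (16.7%, beside 1.27%).

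DIP-delta, a cell-surface immunoglobulin protein of neurons, fell by 0.74 in MN+glia, 0.77 in MN and 1.90 in glia. It was at 6.82 and 6.77 in MN+glia G85R flies and 7.69, 7.46 and 7.44 in MN+glia dSOD1 flies, against 4.90, 5.00 and 4.87 in glia G85R flies and 6.89, 6.77 and 6.79 in glia dSOD1 flies. The MN+glia difference exceeded the glia difference by 1.16 ± 0.15 (limma adjusted p = 4.4e-05), and a second probe set of DIP-delta showed a gap of -0.20 that did not pass the test. CG17177 was at 6.43 and 6.67 in MN+glia G85R flies and 7.25, 7.55 and 7.90 in MN+glia dSOD1 flies, against 3.09, 3.07 and 2.93 in glia G85R flies and 5.50, 5.69 and 5.48 in glia dSOD1 flies. Its gap was 1.51 ± 0.25 (adjusted p = 0.0021), but the degraded array read 5.46, and with it the gap was 1.15 with an adjusted p of 0.13. Without MN+glia G85R replicate 3 the gap was 1.39 with an adjusted p of 0.064.

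Lectin-galC1, which binds galactose, fell by 0.99 in glia flies, while its difference was -0.06 in MN+glia and 0.01 in MN flies. It was at 11.30 and 11.19 in MN+glia G85R flies, 11.24, 11.42 and 11.24 in MN+glia dSOD1 flies, 9.98, 9.86 and 9.94 in glia G85R flies and 10.90, 10.93 and 10.94 in glia dSOD1 flies. All other arrays were above those of glia G85R flies, and the gap between MN+glia and glia was 0.94 ± 0.11 (limma adjusted p = 1.3e-05). The P450 gene Cyp28d1 and CG9259 fell less than in glia flies, by 0.42 ± 0.09 and 0.46 ± 0.09 (adjusted p = 0.042 and 0.015), and lost their calls in 13 and 4 of 28 alternative settings.

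CG30280 and its neighbour CG30281 rose in MN+glia flies. CG30280 was at 6.04 and 6.28 in MN+glia G85R flies and 5.35, 5.41 and 5.58 in MN+glia dSOD1 flies, against 5.35, 5.33 and 5.33 in glia G85R flies and 5.38, 5.45 and 5.35 in glia dSOD1 flies. It exceeded the glia difference by 0.77 ± 0.13 (limma adjusted p = 0.0056) and the MN difference by 1.02 ± 0.13 (adjusted p = 2.6e-05). Without MN+glia G85R replicate 3 the gap to glia was 0.65 with an adjusted p of 0.17. CG30281 rose by 0.61 and exceeded MN by 0.83 ± 0.13 (adjusted p = 0.00056) and glia by 0.61 ± 0.13 (adjusted p = 0.049, lost in 11 of 28 settings).

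Genes of hemocytes, the blood cells of the fly, were looked up after NimC1 was seen among the lower genes, so their list carries no independent weight. NimC1, a receptor by which plasmatocytes take up bacteria, was at 5.30 and 5.14 in MN+glia G85R flies (5.08 on the degraded array) and 6.84, 6.85 and 6.78 in MN+glia dSOD1 flies. MN flies had 6.47, 6.37 and 5.78 with G85R and 6.79, 6.83 and 6.92 with dSOD1, and glia flies had 7.02, 7.05 and 6.69 with G85R and 7.26, 7.32 and 7.30 with dSOD1. MN+glia G85R arrays were below all others. NimC1 fell by 1.61 in MN+glia flies, and its gap was -1.23 ± 0.18 to glia (limma adjusted p = 0.00062) and -0.97 ± 0.18 to MN (adjusted p = 0.006). The gap to MN was -0.89 with an adjusted p of 0.06 without MN+glia G85R replicate 3.

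PPO1 and PPO2, the prophenoloxidases that crystal cells use to make melanin, fell in MN+glia flies and rose in glia flies, and neither fall passed the test with all 36 arrays. PPO1 was at 8.81 and 8.98 in MN+glia G85R flies and 9.27, 9.28 and 9.13 in MN+glia dSOD1 flies, against 10.27, 9.97 and 10.18 in glia G85R flies and 9.79, 9.73 and 9.77 in glia dSOD1 flies. It fell by 0.33 in MN+glia and rose by 0.36 in MN and 0.38 in glia, a gap of -0.71 ± 0.12 to glia (limma adjusted p = 0.003) and of -0.69 ± 0.12 to MN (adjusted p = 0.0017). The degraded array read 9.41, and with it the MN+glia difference was -0.16 (adjusted p = 0.3), the gap to glia -0.54 (adjusted p = 0.15) and the gap to MN -0.52 (adjusted p = 0.045). PPO2 fell by 0.32 in MN+glia flies, and its gap was -0.66 ± 0.13 to glia (adjusted p = 0.026) and -0.57 ± 0.13 to MN (adjusted p = 0.031). With all 36 arrays none of these passed for PPO2, with a difference of -0.12 in MN+glia (adjusted p = 0.5) and gaps of -0.47 to glia (adjusted p = 0.33) and -0.37 to MN (adjusted p = 0.15). The PPO2 calls were lost in 11 of 28 settings against glia and 12 against MN, and the rise of PPO2 in glia flies in 3. NimC4, an engulfment receptor of glia and hemocytes, rose by 0.89 in MN+glia and exceeded MN by 0.64 ± 0.15 (adjusted p = 0.04, lost in 8 of 28 settings). Of the 30 hemocyte genes measured, NimC1, PPO1 and PPO2 were lower against both MN and glia without the degraded array, and the median gap of the list to glia was -0.002, against -0.0098 over all genes. With NimC4, 13.3% of the list was called against MN, and 10% was called against glia. Over all genes these shares were 1.27% and 0.184%. Adding the list after NimC1 was seen favours its shares. The list averaged 7.21 to 7.29 per array in MN+glia G85R flies and 7.23 to 7.27 in MN+glia dSOD1 flies, and the part of blood cell number in these values was not tested.

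The lysosomal and transcription factor genes LManIII and Kr-h1 were also lower against glia. LManIII, a lysosomal mannosidase, differed by -0.19 in MN+glia and rose by 1.24 in glia flies, a gap of -1.42 ± 0.28 (limma adjusted p = 0.021) that was lost in 8 of 28 settings. CG17364 fell by 1.09 in MN+glia flies, a gap of -1.25 ± 0.20 (adjusted p = 0.0021) that its other probe sets did not show past the threshold, and without MN+glia G85R replicate 3 it was -1.14 with an adjusted p of 0.064. CG11741 and Kr-h1, a transcription factor of the juvenile hormone response, had gaps of -1.21 and -0.83 (adjusted p = 0.026 and 0.042) and lost their calls in 9 and 15 settings. CG31077 rose by 0.53 in MN+glia flies and exceeded glia by 0.47 ± 0.10 (adjusted p = 0.036, lost in 11 settings) and MN by 0.49 ± 0.10 (adjusted p = 0.0098), the gap to MN being 0.44 with an adjusted p of 0.078 without MN+glia G85R replicate 3.

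If the effects of the MN and glia drivers were additive on the log2 scale and the UAS lines had the same background, the MN+glia difference would equal the MN difference plus the glia difference. A background difference between the UAS lines enters all 3 differences, so the sum holds it for both drivers. No arrays of flies without a driver were available to remove it. A gap to the sum is therefore not a measure of non-additive driver effects alone. CG7900, CG4269, CG13313, CG17147 and Trf5 instead moved by about the same amount in all 3 lines, which left each of them far short of the sum. In limma, 373 of 18769 probe sets (1.99%) departed from the sum, 170 higher (0.906%) and 203 lower (1.08%). At least 2-fold gaps were seen for 31 of the higher (0.165%) and 61 of the lower (0.325%). With all 36 arrays, 206 were higher and 190 lower (2.11% together), and 298 of the 373 calls were made in both. With every array centred on its median, 235 were higher and 162 lower, 59.2% higher against 45.6% as deposited. At an unadjusted p below 0.05, 2601 passed. Leaving out MN+glia G85R replicate 3 left 103 higher and 155 lower.

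CG7900, a predicted amidase gene, showed the pattern plainly. It was at 7.57 and 7.66 in MN+glia G85R flies and 5.58, 5.73 and 5.68 in MN+glia dSOD1 flies, at 7.97, 7.90 and 7.81 in MN G85R flies and 5.60, 5.80 and 5.41 in MN dSOD1 flies, and at 8.02, 7.74 and 7.96 in glia G85R flies and 5.68, 6.03 and 5.70 in glia dSOD1 flies. These G85R arrays lay between 7.57 and 8.02 and the dSOD1 arrays between 5.41 and 6.03, whichever the driver. The rise was 1.94 in MN+glia, 2.29 in MN and 2.10 in glia, and the MN+glia difference minus the sum was -2.44 ± 0.18 (limma adjusted p = 6.4e-11). It differed from MN by -0.34 ± 0.15 (adjusted p = 0.23) and from glia by -0.15 ± 0.15 (adjusted p = 0.96). CG4269 rose by 1.74, 1.90 and 1.89 in MN+glia, MN and glia flies.

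CG13313 had the mirror pattern. It was at 5.51 and 5.58 in MN+glia G85R flies and 7.89, 7.76 and 7.80 in MN+glia dSOD1 flies, and G85R arrays were between 5.05 and 5.46 and dSOD1 arrays between 7.68 and 8.10 in the single-driver lines. Its difference was -2.28 in MN+glia, -2.75 in MN and -2.53 in glia, which was 3.00 ± 0.18 above the sum (limma adjusted p = 5.2e-13). The differences of CG17147 were -2.72, -2.38 and -2.33 in MN+glia, MN and glia flies and those of Trf5 -2.43, -2.05 and -2.22, and they were 1.99 and 1.84 above the sum (adjusted p = 1.3e-06 and 7.2e-07). Those of Srg2 were -1.80, -2.73 and -2.16, with MN+glia G85R replicates at 5.11 and 6.52. CG33296 rose by 0.66, 1.48 and 1.44, and its gap to the sum was -2.25 ± 0.20 (adjusted p = 8.9e-09) and to MN -0.81 ± 0.17 (adjusted p = 0.013). The gap of CG33296 to MN was -0.80 and -0.82 with adjusted p of 0.051 and 0.06 without MN+glia G85R replicate 1 and replicate 3. A background difference between the UAS lines is shared by all 3 lines and cannot be told apart from an effect of G85R in these genes.

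The 90 probe sets that passed the test and changed at least 2-fold with a single driver were followed into MN+glia, whose values had no part in choosing them. In MN alone 0.304% of all probe sets met this rule, and in glia 0.346%. Of the 18 higher in both single-driver lines, 17 also passed in MN+glia (2.93% of all probe sets were higher there) and 11 of these reached 2-fold (0.176%). Their median was 1.39 in MN+glia, 1.43 in MN, 1.53 in glia and 2.99 for the sum. Of the 14 lower in both, all 14 passed (3.58% of all were lower) and 12 reached 2-fold (0.192%), with medians of -1.68 in MN+glia, -1.58 in MN, -1.64 in glia and -3.08 for the sum. For none of these was the MN+glia difference nearest to the sum. All 18 and 13 of the 14 were called different from the sum, against 1.99% of all probe sets, a count that the choice by both single drivers favours. The part of the UAS line background in this count was not tested. No probe set changed 2-fold in opposite directions in the 2 single-driver lines.

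Probe sets that reached 2-fold with MN and not with glia had smaller medians in MN+glia than in MN. The 15 higher in MN and not at 2-fold in glia had a median of 0.81 in MN+glia, 1.54 in MN and 0.71 in glia, and 4 reached 2-fold in MN+glia. The 10 lower in MN had -0.72 in MN+glia, -1.22 in MN and -0.71 in glia, and 3 reached 2-fold. None of these was called different from glia, and 7 of the 15 and 3 of the 10 were called different from MN. The 14 higher in glia and not called at 2-fold in MN had 0.99 in MN+glia, 0.61 in MN and 1.38 in glia (6 at 2-fold), and the 19 lower in glia had -1.27, -0.71 and -1.26 (12 at 2-fold). Of the 14, 2 were called different from MN and 3 from glia, and of the 19, 9 and 2. The MN+glia difference was nearer to glia than to MN for 12 of the 15 and 8 of the 10 chosen by MN. It was nearer to glia for 8 of the 14 and 10 of the 19 chosen by glia. A value chosen for being extreme in one line is on average less extreme elsewhere, so these medians and counts carry no test.

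**Figure D4:**
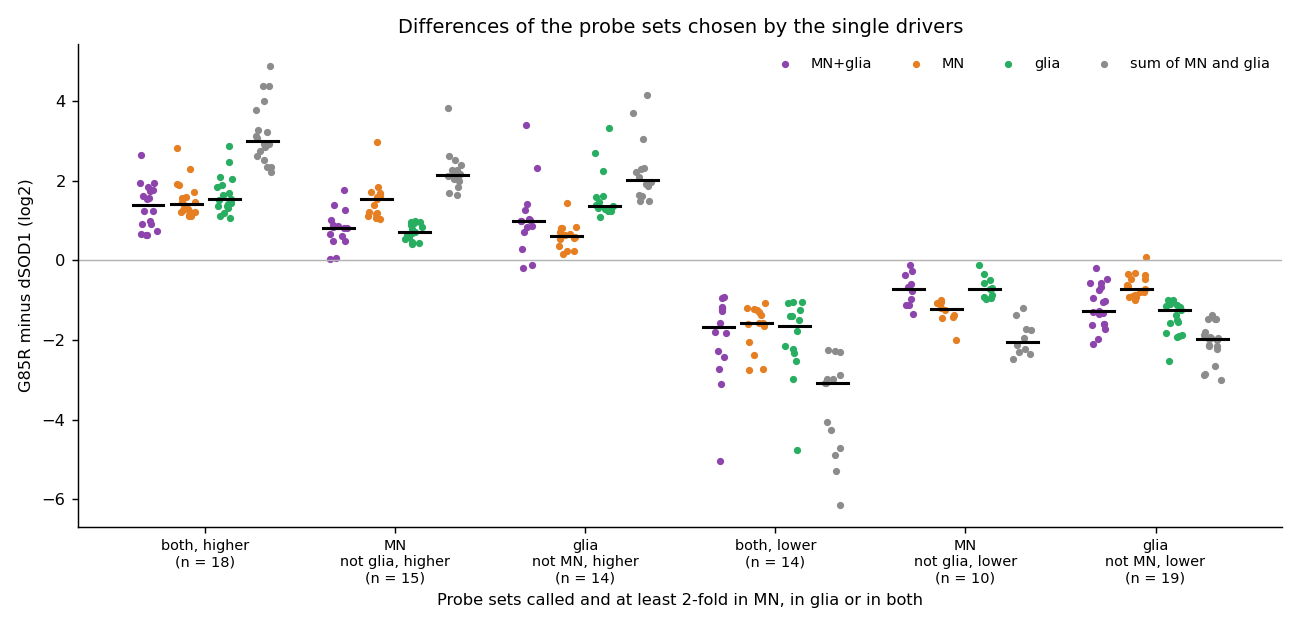
Difference between G85R and dSOD1 (y axis, log2) in MN+glia, MN and glia flies and the sum of MN and glia, for the 90 probe sets called and at least 2-fold in MN, glia or both (x axis, grouped by which driver chose them). Bars are medians; MN+glia sits beside the single drivers and well inside the sum in the sets chosen by both drivers.

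Among these sets, GILT3, a predicted lysosomal thiol reductase gene, had differences of -1.97 in MN+glia, -0.91 in MN and -1.93 in glia. SCAP, whose protein escorts the lipid regulator SREBP, had differences of -1.60 in MN+glia, -0.63 in MN and -1.49 in glia. Their gaps to MN were -1.06 ± 0.14 and -0.97 ± 0.12 (limma adjusted p = 2.56e-05 and 1.99e-05). GstD2, a glutathione transferase gene chosen by glia, rose by 0.98 in MN+glia, 0.58 in MN and 1.29 in glia, with a gap to the sum of -0.90 ± 0.15 (adjusted p = 0.00034). A probe set with no gene symbol had the largest fall in these sets, with -5.04 in MN+glia, -1.37 in MN and -4.76 in glia.

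Gene lists were then read for these calls. Against MN, 12 of 29 lists had a called member, against glia 5 and against the sum 15, where 2.62% of all genes departed from the sum. Among the 3 small heat shock genes, 16 large heat shock genes and co-chaperones, and 9 genes of the Turandot and JAK/STAT stress list, none was called in any of the 3 comparisons. Their medians were -0.135 to 0.056, against -0.0334, -0.0098 and -0.0201 over all genes for MN, glia and the sum. The Turandot and JAK/STAT list held the co-chaperone gene Stip1, which was also counted with the large heat shock genes. Of the 13 antimicrobial peptide genes, none differed from MN or glia, and 2 (15.4%) differed from the sum, Drsl4 below it (-0.69 ± 0.17, limma adjusted p = 0.022, lost in 6 of 28 settings) and Drsl2 above it (1.44 ± 0.39, adjusted p = 0.05, lost in 19 of 28 settings).

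With 1 probe set per gene, the 26 neuron and motoneuron genes held no call in any comparison. Their median was -0.19 against MN, 0.03 against glia and -0.11 against the sum. Another probe set of brp, a gene of this list, was called lower against MN (-0.52). In MN flies themselves, Appl, Gad1, slo, exex, ChAT and cac, 6 of the 26, were higher with G85R, where 7.41% of all genes were, and none passed in MN+glia or glia flies. The list averaged 7.60 to 7.62 per array in MN+glia G85R flies and 7.56 to 7.59 in MN+glia dSOD1 flies, 7.49 to 7.60 in MN G85R flies and 7.30 to 7.49 in MN dSOD1 flies. In glia flies it averaged 7.27 to 7.29 with G85R and 7.27 to 7.31 with dSOD1. Of 24 glial markers, 2 (8.33%) were lower against MN, where 1.27% of all genes were called. These were bnb (-0.53 ± 0.11, limma adjusted p = 0.016, lost in 5 of 28 settings) and egr, which encodes the TNF ligand Eiger (-0.36 ± 0.09, adjusted p = 0.034, lost in 10). A further probe set of egr had a gap of -0.07 to MN that did not pass (limma adjusted p = 0.86). None of the glial markers differed from glia or from the sum. The 19 septate junction genes and 27 neuropeptide genes held no call.

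Called genes of detoxification and digestion lay on both sides of the sum. Over all genes, 1.27% differed from MN, 0.184% from glia and 2.62% from the sum. A change with both single drivers favours a gap to the sum. Of 81 cytochrome P450 genes, 4 were above and 5 below the sum (11.1%). Among them was Cyp4p2, which fell by 1.11 in MN+glia, 1.44 in MN and 0.86 in glia (1.19 ± 0.13 above the sum, limma adjusted p = 4.9e-07). Only Cyp49a1 differed from MN (1.23%, lower, lost in 15 of 28 settings) and only Cyp28d1 from glia (1.23%). Of 35 UDP-glucuronosyltransferase genes, 1 was higher and 3 lower against MN (11.4%), and 1 was lower against glia (2.86%). Against the sum, 1 was above and 4 below (14.3%). Ugt37A3 fell by 0.41 in MN+glia and rose by 0.49 in MN, a gap of -0.90 ± 0.14 to MN (adjusted p = 0.00025). With all 36 arrays its fall in MN+glia did not pass (-0.27, adjusted p = 0.081), and its gap to glia was lost in 10 of 28 settings. Ugt36E1 fell by 1.29 in MN+glia, 0.64 in MN and 1.36 in glia, and Ugt37D1 exceeded MN by 0.37 (lost in 15 settings). Of 34 glutathione transferase genes, none differed from MN or glia. GstT3 was above (lost in 9 settings) and GstD2 and GstD9 below the sum (8.82% together).

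Of 32 lipase genes, CG11598 and Lip4 were higher and CG18284 lower against MN (9.38%, beside 1.27% of all genes). CG18284 was lost in 9 of 28 settings. No lipase gene differed from glia, and 2 were above and 4 below the sum (18.8%, beside 2.62% of all genes). CG2772 was among those below, with rises of 1.56 in MN+glia, 1.22 in MN and 1.84 in glia. Of 26 digestive serine protease genes, Ser8 was lower against MN (-0.74 ± 0.15, limma adjusted p = 0.013), and this was -0.44 with an adjusted p of 0.18 without MN+glia G85R replicate 3. The share of these protease genes called against MN was 3.85%. None differed from glia, and 2 were above and 3 below the sum (19.2%). Of 47 odorant-binding protein genes, Obp56h was lower against MN (2.13%, lost in 20 of 28 settings) and 4 were below the sum (8.51%). Among the 4 was Obp99b, with rises of 1.62 in MN+glia, 1.58 in MN and 1.69 in glia. Of 3 lysozyme genes, LysP was the one called, against MN (33.3%).

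Of 11 storage and fat body genes, fit was lower against MN and the sum (9.09% each, beside 1.27% and 2.62% of all genes). Among 29 accessory gland, 15 female germline, 23 sarcomere, 41 ribosomal protein, 40 proteasome and 19 eye pigment genes, none was called in the 3 comparisons with 1 probe set per gene. Another probe set of the sarcomere gene Mlp60A was called higher against MN (0.58). Of 42 testis genes, can was below the sum (2.38%, lost in 17 of 28 settings). Of 17 phototransduction genes, trpl (5.88%) had a gap of -0.79 ± 0.14 to it (limma adjusted p = 0.00084). Of 64 respiratory chain genes, RFeSP and COX6AL2 (3.12%) were above it. RFeSP was lost in 16 of 28 settings, and its second probe set had a gap of -0.11 to the sum (adjusted p = 0.81). COX6AL2 was lost with all 36 arrays (0.46, adjusted p = 0.055).

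Over all probe sets, whether or not they changed with a driver, most combined and single-driver differences were bounded closely. The 95% interval of the difference between MN+glia and glia lay within 2-fold for 99.4% of probe sets, that between MN+glia and MN for 98.8% and that between MN+glia and the sum for 97.1%. Their median half-widths were 0.252, 0.252 and 0.302 on the log2 scale. Probe sets that changed with both single drivers were not so close to the sum. Of the 18 called at least 2-fold higher in both, the interval lay within 2-fold of glia for 14, of MN for 14 and of the sum for 0. Of the 14 lower in both, these counts were 12, 10 and 0. The choice by both single drivers favours a gap to the sum.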

How the data were processed

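RNA from pools of 40 whole males was hybridised to Affymetrix Drosophila Genome 2.0 arrays, and the log2 values used here are those the authors deposited after RMA (background correction, quantile normalisation and probe-set summary), so all arrays were already on a common scale. Array number, not read depth, limits precision. Linear models were fitted with limma 3.58.1 in R 4.3.3, with a mean for each of 12 groups (genotype, driver and age), on 35 of 36 arrays (23 residual degrees of freedom). Replicate 2 of MN+glia G85R was left out first because its control probe sets showed degraded RNA. The study's methods name a glia G85R array at 5d as degraded, but the control gaps of its 3 glia G85R arrays were no larger than those of the other groups. The differences between lines were contrasts of these means, p-values were adjusted by Benjamini-Hochberg over 18769 fly probe sets within a comparison, and 0.05 was the threshold. AFFX controls were left out, probe sets were named through the platform annotation, and those with several genes were not named. A look-up of RefSeq symbols changed none of these names.

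Named genes were the 8 most positive and 8 most negative called genes of each comparison and up to 2 called members each way per gene list. Up to 3 examples were taken from each set of probe sets chosen by the single drivers. Of the 29 gene lists, the hemocyte list was added after its genes' values were seen. Members and lists were chosen with earlier results of these data known. Replicate numbers did not pair the arrays, since 6 of 30 same-number pairs had residual correlations above 0.1 (range -0.396 to 0.153). The alternatives were 11 other settings and the omission of each of 17 arrays in turn. The gene targeted by the transgenes is not reported here. The fitting steps were tested on simulated data.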

Additional observations from a re-analysis of the deposited data

Results flagged for a closer look

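Each gene here had a difference between G85R and dSOD1 that was itself tested as unlike between driver lines, with limma and Benjamini-Hochberg adjustment, and passed. Values are the MN+glia difference minus the single-driver difference on the log2 scale.

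Against MN, the higher genes were CG11598 (2.59), CG13324 (1.89), alpha-Est2 (1.51), CG30280 (1.02), CG10051 (0.92), Jabba (0.91), Jhbp6 (0.89), CG14695 (0.84), CG30281 (0.83), LysP (0.82), Lip4 (0.76), NimC4 (0.64), CG31077 (0.49) and Ugt37D1 (0.37). The lower genes were CG31809 (-2.85), Prx6c (-2.20), CG31244 (-2.03), CG17751 (-1.95), ImpE3 (-1.70), fit (-1.63), CG33109 (-1.36), CR44101 (-1.35), Ugt49B1 (-1.12), NimC1 (-0.97), CG17364 (-0.95), Ugt37A3 (-0.90), CG33296 (-0.81), Ser8 (-0.74), PPO1 (-0.69), Ugt36E1 (-0.66), CG18284 (-0.57), PPO2 (-0.57), bnb (-0.53), Obp56h (-0.50), Cyp49a1 (-0.41) and egr (-0.36).

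Against glia, the higher genes were CG17177 (1.51), DIP-delta (1.16), Lectin-galC1 (0.94), CG30280 (0.77), CG30281 (0.61), CG31077 (0.47), CG9259 (0.46) and Cyp28d1 (0.42). The lower genes were CG31809 (-3.35), CG31810 (-2.42), Prx6c (-1.42), LManIII (-1.42), CG17364 (-1.25), NimC1 (-1.23), CG11741 (-1.21), Kr-h1 (-0.83), PPO1 (-0.71), Ugt37A3 (-0.67) and PPO2 (-0.66).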

How the results depend on the processing

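None of the 283 called differences of named genes changed sign in the 28 settings (27 for Jhbp6, whose probe set is not kept with 1 probe set per gene). The split of calls did turn with median centring, to 62.7% higher from 42.2% against MN and to 59.2% from 45.6% against the sum. Of the named calls, 22 of 38 against MN, 6 of 19 against glia and 44 of 64 against the sum held in every setting run. Counts of calls moved more. With all 36 arrays, 226 were higher and 261 lower against MN, 18 were higher against glia, and 1135 and 1468 passed in MN+glia itself. Array weights gave 139 and 185 against MN, 17 and 36 against glia, and 980 and 1087 in glia itself. The 5d arrays alone gave 29 and 43 against MN, 4 and 9 against glia, and 106 higher against the sum. Median centring gave 66 lower against MN, and moved the MN difference itself to 40.5% higher from 54.2% as deposited. A mean trend gave 14 higher against glia, and adjustment over the 3 comparisons together 18 and 32. The causes were not tested. The other counts stayed within 1.5 times the values reported.

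With 1 array left out, the calls against MN ranged from 30 to 224 higher and 45 to 284 lower (at least 2-fold 3 to 13 and 15 to 22). Those against glia ranged from 2 to 38 and 8 to 22 (1 to 10 and 5 to 8), and those against the sum from 103 to 219 and 155 to 232 (26 to 38 and 52 to 67). The MN difference gave 577 to 1380 higher and 467 to 1136 lower (33 to 43 and 23 to 27), the glia difference 414 to 671 and 472 to 726 (31 to 41 and 30 to 35), and the MN+glia difference 235 to 575 and 265 to 705 (24 to 43 and 32 to 38). Where 1 MN+glia G85R array remained, it was assumed to vary like the other groups.

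With the replicate number as a block, 67 were higher and 88 lower against MN, 10 and 15 against glia, and 160 and 189 against the sum. The numbers did not pair the arrays.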
